A study of Mus musculus with 28 samples.

Results

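The anterior and central genes of the HoxA cluster, Hoxa2, Hoxa3, Hoxa4, Hoxa5, Hoxa6 and Hoxa7, were examined in neural stem cells for the order of Smchd1, Ctcf, 2 histone marks and DNA methylation along the chromosome. They are 6 of the 21887 protein-coding genes annotated on assembled chromosomes and were chosen by name. All 6 lie side by side on chromosome 6 (mm10, as are all positions below), and with 5 kb added beyond the outermost gene ends they occupy chr6:52157417-52223573, a span of 66.2 kb. The flanks reach into the neighbouring genes of the cluster, Hoxa9 on the upper side and the next anterior gene on the lower side.

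Hox genes encode homeodomain transcription factors that give cells their position along the head-to-tail axis, and their order on the chromosome follows the order of their expression domains in the embryo. Where a Hox gene is silent, Polycomb complexes cover it with H3K27me3, whereas active promoters carry H3K4me3. Ctcf binds between Hox genes in other cell types and separates active from silent parts of a cluster, and Smchd1, a chromatin protein related to cohesin and condensin, helps to keep several gene clusters silent. In the developing brain, Hox genes are active in the hindbrain and spinal cord and silent in the forebrain. The sources used here do not give the part of the brain from which these cultures came.

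The cells were cultures grown from brains of male E14.5 embryos on a mixed C57BL/6 x FVB/N background. Null cells were homozygous for the MommeD1 allele of Smchd1 (Smchd1MommeD1/MommeD1), and wild-type cells carried the normal gene. H3K4me3, H3K27me3 and Smchd1 were immunoprecipitated from 2 libraries per genotype and methylated DNA was captured with a methyl-CpG binding domain (MBD) protein from 3 per genotype. Whole cell extracts gave 1 control library per genotype. Ctcf was immunoprecipitated from 2 libraries each of null cells, untransduced wild-type cells and wild-type cells transduced with a control hairpin (non-silencing shRNA). A further 2 libraries came from wild-type cells with the hairpins Ctcf.6 and Ctcf.7, 1 library each, and served as the background of all Ctcf lists. A Ctcf site that kept its Ctcf under these hairpins could therefore be missing. Smchd1 lists exist for wild-type cells only, because Smchd1 ChIP in null cells was their background. Whether replicate libraries came from separate embryos was not stated.

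The deposited values are 11 lists of peak summits, positions 1 bp wide, each made from the merged libraries of 1 group, with a score that is the −log10 of either a p-value or a q-value. They hold no value per library, so every count below is without replicate error, no test between genotypes could be made, and differences between null and wild-type cells are descriptions of paired lists. Reads per list are not known. The lists held 77 null and 732 wild-type H3K27me3 summits, 24201 null and 23449 wild-type H3K4me3 summits, 407 Smchd1 summits at a threshold of 5e-4 and 1105 at 5e-3, and 11920 Ctcf summits in null, 8292 in untransduced and 20483 in non-silencing wild-type cells. The MBD lists held 126631 and 156188 summits and are called by their file names, null and wild type, since the sample labels assign them the other way round. As a check of the cell type, H3K4me3 lay within 2 kb of an end of 8 of 10 neural stem cell marker genes in null cells and 9 of 10 in wild-type cells, of 5 of 6 neuron markers in each, of 0 of 4 astrocyte and 0 of 3 blood and microglia markers in each, and of 1 of 3 oligodendrocyte, endothelium and mesenchyme markers in each. Neuron markers were listed about as often as stem cell markers, so this check does not tell stem cells from neurons. With the wider window of the gene and 5 kb on either side, 64.2% of coding genes had H3K4me3 in null and 64.5% in wild-type cells. In bulk cultures, a mark on some cells cannot be told apart from a weaker mark on all of them.

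From 5 kb below Hoxa2 to 5 kb above Hoxa7, the lists held 7 Smchd1 summits at 5e-4 and 15 at 5e-3, 4 null and 3 wild-type H3K4me3 summits, and 5 null and 26 wild-type H3K27me3 summits. Ctcf had 1 summit in null cells, 2 in untransduced and 4 in non-silencing wild-type cells. The MBD list named for null had 2 and the one named for wild type had 0. Wild-type H3K27me3 ran through the stretch from end to end, with gaps, H3K4me3 stood at a few isolated points, and Ctcf was listed above Hoxa4 and nowhere below it. Every H3K4me3 and every Ctcf summit of the span had a Smchd1 summit of the 5e-4 list within 309 bp.

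**Figure D1:**
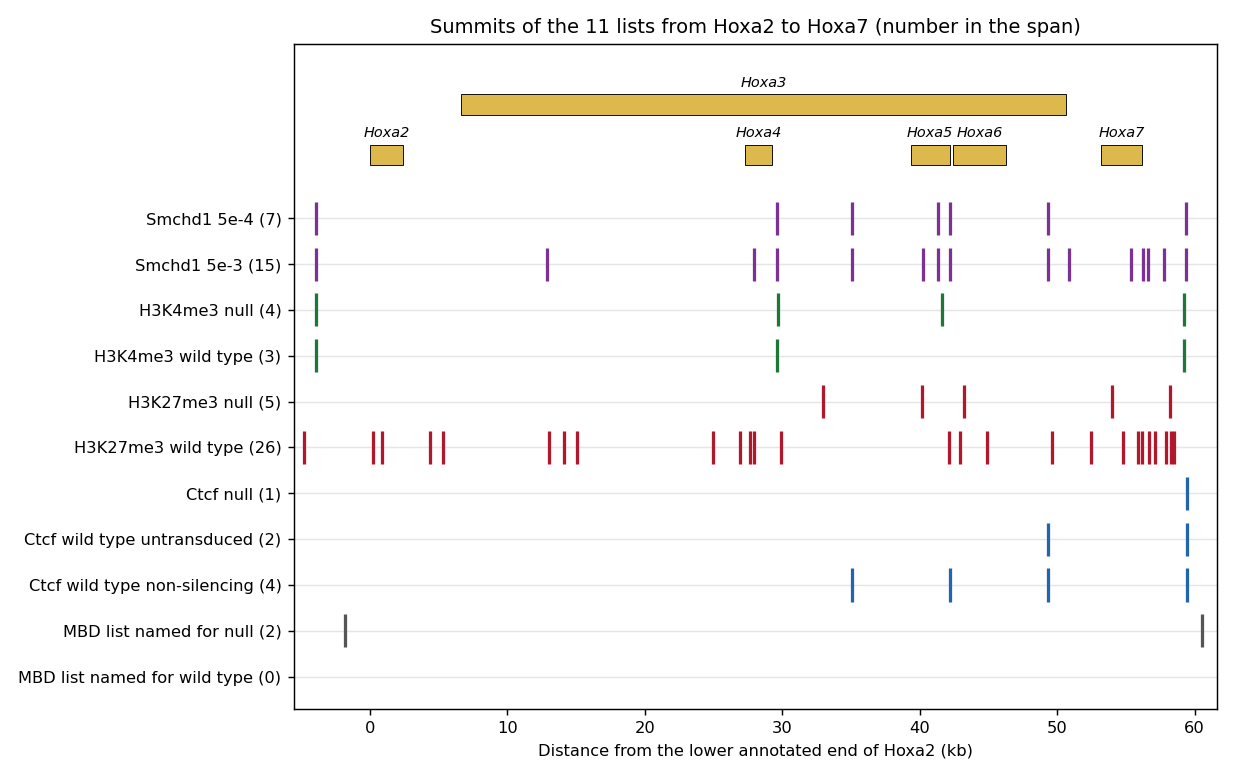
Positions of the summits of the 11 lists (rows, with the number in the span) against the distance in kb from the lower annotated end of Hoxa2, with the annotated extents of the 6 genes on top. The 26 wild-type H3K27me3 summits run from end to end with gaps, the 5 null ones lie above Hoxa4, and the 4 Ctcf positions of the non-silencing list coincide with Smchd1 summits.

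The genes are transcribed toward lower coordinates, so the upper annotated end is the start of a gene. Hoxa3 is annotated from 52169059 to 52213067, 44009 bp, and this extent contains Hoxa4, Hoxa5 and Hoxa6. Windows of neighbouring members overlap, 1 summit can count for several genes, and the 6 genes are not independent.

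Smchd1 was listed at all 6 members when each gene was taken with 5 kb on either side, against 0.973% of all coding genes at 5e-4 and 2.61% at 5e-3. Hoxa2, which patterns the hindbrain and the second pharyngeal arch, had 1 summit of the 5e-4 list, Hoxa3, a gene needed for thymus and parathyroid, had 5, Hoxa4 had 1, Hoxa5, a gene needed for lung development, had 3, and the trunk patterning genes Hoxa6 and Hoxa7 had 3 and 2. From the lowest to the highest position, the 7 summits lay at 52158545 (score 4.05), 52192042 (4.70), 52197466 (7.54), 52203725 (5.47), 52204653 (5.43), 52211724 (10.5) and 52221815 (17.3). The 2 highest scores were those nearest to Hoxa7. The summit at 52221815, 3242 bp above the start of Hoxa7, ranked 10 of 407, and the one at 52211724, between Hoxa6 and Hoxa7, ranked 56. At the other end, the summit below Hoxa2 ranked 382 and lay where the noncoding RNA gene Hotairm1 and the next anterior Hox gene overlap, 3872 bp from Hoxa2, rather than at Hoxa2 itself.

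Between the summit in Hotairm1 and the one above the start of Hoxa4 lay 33.5 kb with no Smchd1 summit of the 5e-4 list, a stretch that takes in Hoxa2, the lower part of Hoxa3 and Hoxa4. The 5e-3 list added 1 weak summit in Hoxa3 (52175304, score 2.79) and 1 in Hoxa4 (52190362, 3.53) there. Up to the upper end of Hoxa4, 34.3 kb held 1 summit of the 5e-4 list and 3 of the 5e-3 list. Above it, 31.9 kb held 6 and 12. This boundary was chosen after the positions were seen. The remaining additions of the 5e-3 list lay in Hoxa5 (52202658, 4.23), 183 bp above the annotated start of Hoxa3 (52213250, 4.11), in Hoxa7 (52217761, 2.55) and at 3 positions 60, 478 and 1589 bp above the start of Hoxa7 (3.01, 4.15 and 2.69).

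**Figure D2:**
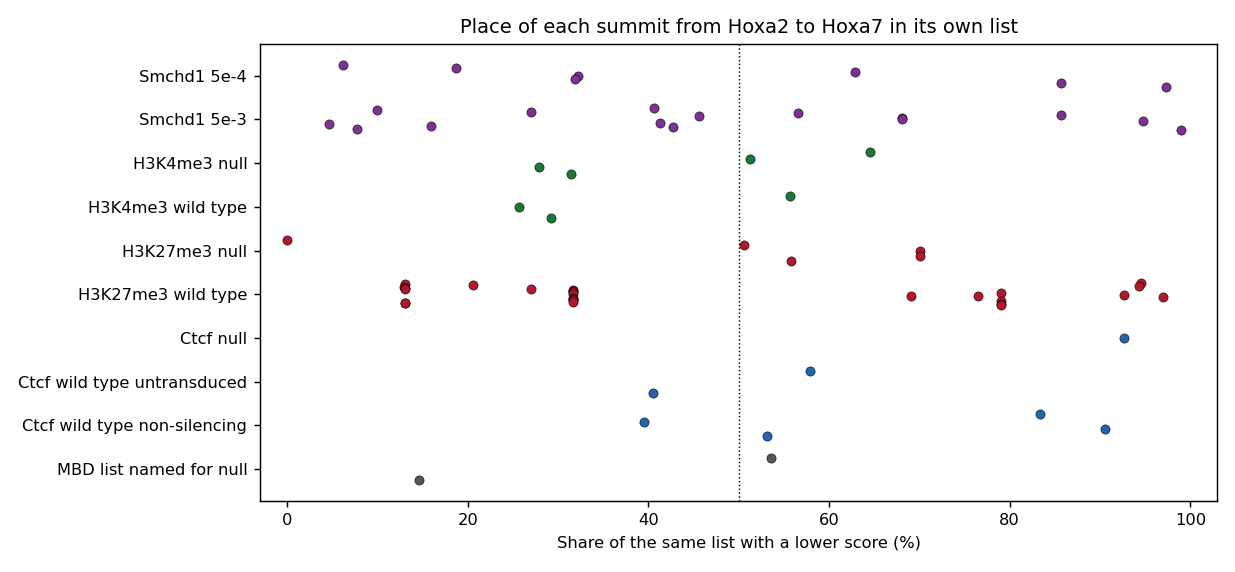
Share of each list (rows) that has a lower score than the summit drawn, in percent, for every summit from Hoxa2 to Hoxa7 (points, from low to high position downward within a row; the dotted line is the middle of the list). The highest Smchd1 summit lies above 97.3% of the 5e-4 list, the null Ctcf summit above 92.7% of its list, and the H3K4me3 summits between 25.7% and 64.5%.

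The promoter letters show what lies under the Smchd1 summits next to gene starts. RefSeq promoter sequences of GRCm38, the assembly of mm10, covered 250 bases before and 50 after the start for 5 of the 6 members, all but Hoxa4. Smchd1 summits fell in 3 of these windows, those of Hoxa3, Hoxa5 and Hoxa7, and in neither that of Hoxa2 nor that of Hoxa6. The 250 bases before each of these starts follow, on the gene strand from 5′ to 3′. In Hoxa5, capitals mark a match to the Ctcf core consensus. In Hoxa3 and Hoxa7, capitals mark the 15 bases centred on the Smchd1 summit.

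Hoxa5: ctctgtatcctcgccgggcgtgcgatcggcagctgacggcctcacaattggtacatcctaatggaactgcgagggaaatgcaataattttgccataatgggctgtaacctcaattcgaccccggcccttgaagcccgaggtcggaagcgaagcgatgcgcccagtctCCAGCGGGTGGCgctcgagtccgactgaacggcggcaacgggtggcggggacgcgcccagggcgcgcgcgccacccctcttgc
Hoxa7: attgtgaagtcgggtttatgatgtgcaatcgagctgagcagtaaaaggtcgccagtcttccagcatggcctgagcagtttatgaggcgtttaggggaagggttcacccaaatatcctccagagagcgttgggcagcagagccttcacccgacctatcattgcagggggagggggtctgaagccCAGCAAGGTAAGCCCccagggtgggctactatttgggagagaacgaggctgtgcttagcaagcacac
Hoxa3: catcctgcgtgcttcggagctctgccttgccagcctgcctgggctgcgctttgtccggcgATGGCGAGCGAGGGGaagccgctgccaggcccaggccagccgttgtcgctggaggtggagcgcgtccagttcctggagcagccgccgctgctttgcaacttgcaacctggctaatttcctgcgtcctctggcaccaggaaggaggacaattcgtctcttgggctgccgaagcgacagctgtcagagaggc

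The Hoxa5 start (chr6:52204588-52204837, minus strand) was the one member promoter of the 5 with a Ctcf summit in its window. Counted from 1 at the 5′ end, the Smchd1 summit (52204653) lay at base 185 and the non-silencing Ctcf summit (52204618, score 8.99) at base 220, and the match to the Ctcf core consensus, with 1 mismatch allowed, ran from base 168 to 179. That consensus was chosen after the summits had been seen, and 4.33% of 32851 promoters held such a match. A shorter core without mismatches, CNAGGNGGC on either strand (N is any base), had a match in 0 of the 5 member promoters and in 8.38% of all. It was thus more common among promoters than the consensus. The homeobox core TAATTA had a match in 0 of 5 and 5.29% of all. The wild-type H3K27me3 summit at Hoxa5 (52204515, 5.78) lay 72 bp inside the gene. At Hoxa7 (chr6:52218574-52218823, minus strand), the Smchd1 summit of the 5e-3 list lay at base 191 and a wild-type H3K27me3 summit 17 bp inside the gene (52218556, 5.60). At the annotated start of Hoxa3 (chr6:52213068-52213317, minus strand), a Smchd1 summit of the 5e-3 list lay at base 68, and no other list had a summit in the window.

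Base composition differed among the promoters. The Hoxa5 and Hoxa6 windows held 29 and 26 CpG and 61.7% and 62% G or C, the Hoxa3 window 20 CpG and 64%, and the Hoxa2 and Hoxa7 windows 9 CpG each, with 45.7% and 55.7%. The median of all promoters was 7 CpG and 52.7%. Hoxa2 and Hoxa7 were thus close to the typical promoter in CpG number, and 87.1% of promoters held fewer CpG than Hoxa5. H3K4me3 had no summit in any of the 5 windows in either genotype.

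H3K4me3, the mark of active promoters, was compared between genotypes next. It was listed within the windows of 6 of 6 members in null cells and of 4 of 6 in wild-type cells, against 64.2% and 64.5% of coding genes. At 3 places both genotypes had a summit. The lowest, at 52158484 in null cells (score 35.0) and 52158491 in wild-type cells (30.1), lay in the noncoding RNA gene Hotairm2, over which the next anterior Hox gene is also annotated, and 3933 and 3926 bp below Hoxa2. The middle one lay above the start of Hoxa4, by 412 bp in null cells (52192115, score 25.6) and by 343 bp in wild-type cells (52192046, 11.3). The uppermost lay 3062 bp above the start of Hoxa7 in null cells (52221635, 13.2) and 3063 bp above it in wild-type cells (52221636, 13.2). Hoxa2 and Hoxa7 owe their listing to these outer summits, and none lay within either gene.

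The fourth null summit had no wild-type counterpart. It lay inside Hoxa5, 553 bp below its start (52204034, score 11.7), and the nearest wild-type H3K4me3 summit, that above Hoxa4, was 11988 bp away. Through it, Hoxa5 and Hoxa6 were listed in null cells only, by 1 shared summit, as were 1.01% of coding genes, and 0 members were listed in wild-type cells only (1.35% of coding genes). Its score exceeded those of 27.9% of the null list, and 7.84% of all null H3K4me3 summits had no wild-type one within 1 kb. Above Hoxa4 the null summit outscored 51.3% of its list and the wild-type one 25.7% of its own. Below Hoxa2 these shares were 64.5% in null and 55.7% in wild-type cells, and above Hoxa7 31.4% and 29.2%. Scores of different lists depend on depth and background and were not tested against each other.

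Each H3K4me3 summit had Smchd1 beside it. For the 4 null summits, the nearest Smchd1 summit of the 5e-4 list was 61 to 309 bp away, and for the 3 wild-type summits it was 4 to 179 bp away. In the whole lists, 0.74% of null and 0.67% of wild-type H3K4me3 summits had Smchd1 within 1 kb. These shares do not allow for the 7 Smchd1 summits that lie in this span of 66.2 kb. Counted from Smchd1, 5 of the 7 summits of the 5e-4 list had null H3K4me3 within 1 kb, against 38.1% of that whole list. For wild-type H3K4me3 it was 3 of 7, against 35.9%. The closest pair was the one above the Hoxa4 start, 4 bp apart in wild-type cells. Wild-type H3K27me3 lay within 1 kb of all 4 null (186 to 826 bp) and all 3 wild-type H3K4me3 summits (255 to 833 bp), against 0.343% and 0.333% of those lists as a whole. With 26 wild-type H3K27me3 summits in 66.2 kb, such closeness is more likely here than elsewhere, which those shares do not allow for. No null H3K27me3 summit lay within 1 kb of a null H3K4me3 summit here, the nearest being 1023 bp away.

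**Figure D3:**
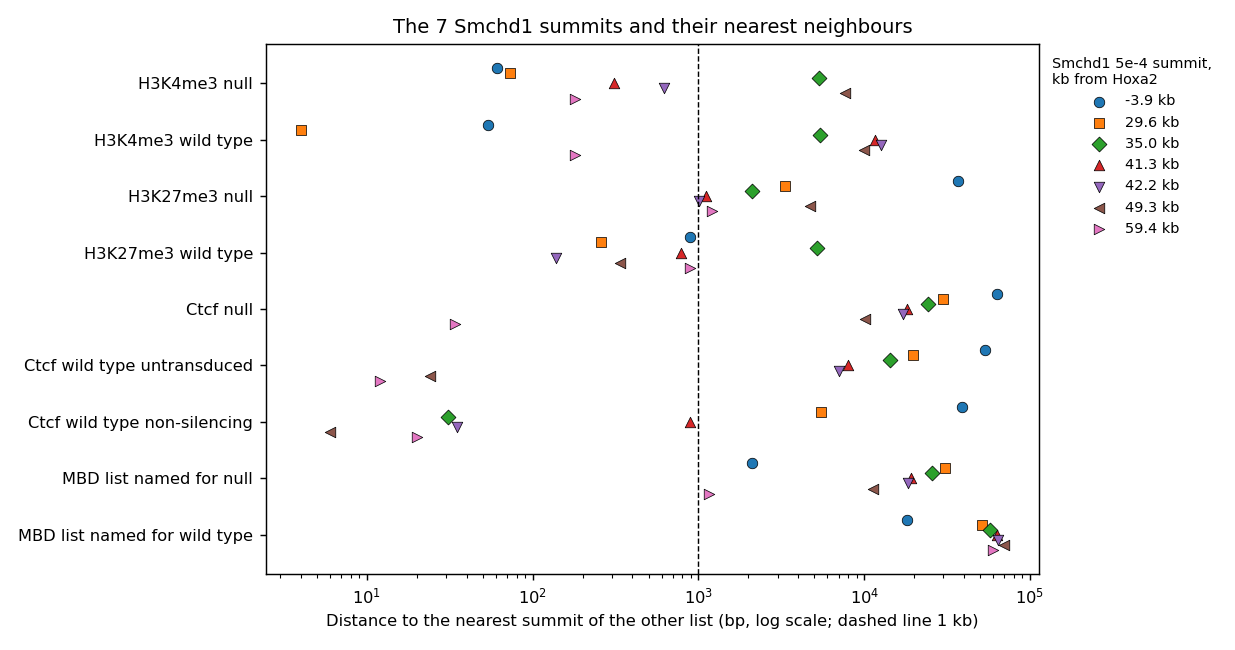
Distance in bp (log scale, dashed line at 1 kb) from each of the 7 Smchd1 summits of the 5e-4 list (symbols, named by their distance in kb from the lower end of Hoxa2) to the nearest summit of the other 9 lists. Within 50 bp lie 4 non-silencing Ctcf summits, 2 untransduced ones, 1 null one and 1 wild-type H3K4me3 summit.

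Every Ctcf summit lay within 35 bp of a Smchd1 summit of the 5e-4 list, and 1 of them, in the non-silencing list, also lay 31 bp from the start of a member, Hoxa5. Of the 6 members, 1 (Hoxa7) was listed in null cells, 3 (Hoxa3, Hoxa6 and Hoxa7) in untransduced and 4 (Hoxa3, Hoxa5, Hoxa6 and Hoxa7) in non-silencing wild-type cells, against 30.7%, 24.0% and 42.5% of coding genes. The non-silencing list had summits between Hoxa4 and Hoxa5 (52197497, score 15.8), just above the Hoxa5 start (52204618, 8.99), between Hoxa6 and Hoxa7 (52211730, 18.6) and above Hoxa7 (52221835, 10.6). They lay 31, 35, 6 and 20 bp from the Smchd1 summits at 52197466, 52204653, 52211724 and 52221815. In all, 5 of the 7 Smchd1 summits had non-silencing Ctcf within 1 kb, against 43% of the whole 5e-4 list. The Smchd1 summit at 52203725 counts here through the Ctcf summit at 52204618, 893 bp away, which also pairs with 52204653. With untransduced Ctcf it was 2 of 7 against 22.1%, and with null Ctcf 1 of 7 against 34.6%. The untransduced list held the upper pair, at 52211748 (9.54) and 52221827 (8.01), and the null list held the uppermost alone, at 52221849 (15.7), which ranked 837 of 11920.

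Between Hoxa6 and Hoxa7, then, both wild-type lists had a Ctcf summit, and the nearest null one was 10101 bp from the untransduced one. Of the 7269 non-silencing summits with an untransduced one within 1 kb, 32.8% had no null one, and of the 1954 non-silencing summits that scored at least as high, 20.1% had none. Hoxa3, Hoxa5 and Hoxa6 were listed in non-silencing but not in null cells, as were 15.5% of coding genes. Hoxa3 and Hoxa6 were listed in untransduced but not in null cells (5.69% of coding genes), and no member was listed in null cells only (3.67% against the non-silencing and 12.4% against the untransduced list). The 2 non-silencing summits nearest to Hoxa5 were missing from the untransduced list as well, so at Hoxa5 the null and untransduced lists had 0 Ctcf summits each and the non-silencing list had 2.

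H3K27me3, laid down by Polycomb repressive complex, was listed at 5 of 6 members in null and 6 of 6 in wild-type cells, against 0.270% and 1.15% of coding genes. Hoxa2 was the member without a null summit, and 0.900% of coding genes were likewise listed in wild-type cells only, whereas 0 members and 0.0228% of coding genes were listed in null cells only. By gene window, Hoxa2 had 0 null and 5 wild-type summits, Hoxa3 4 and 16, Hoxa4 1 and 5, Hoxa5 2 and 3, Hoxa6 2 and 4, and Hoxa7 2 and 10. The null summits, from low to high, lay between Hoxa4 and Hoxa5 (52195366, score 3.33), in Hoxa5 (52202607, 4.50), in Hoxa6 (52205659, 4.81), in Hoxa7 (52216402, 4.81) and above Hoxa7 (52220612, 4.60). None lay up to the upper end of Hoxa4, where the wild-type list had 12 summits (3.5 per 10 kb). Above that point, the null list had 5 (1.57 per 10 kb) and the wild-type list 14 (4.39 per 10 kb).

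**Figure D4:**
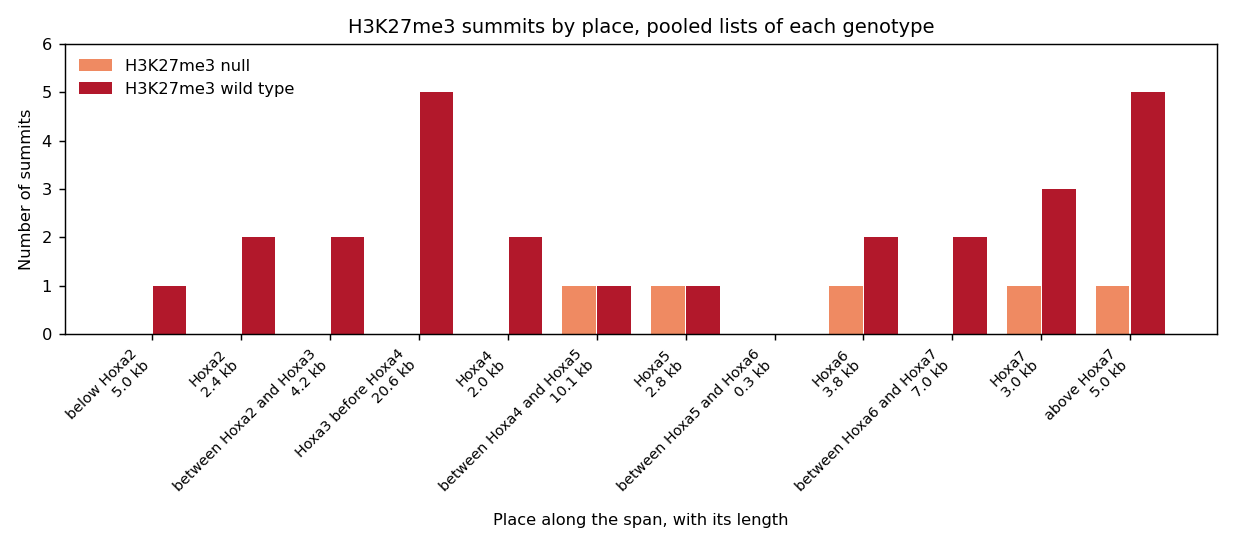
Number of H3K27me3 summits of the null and the wild-type list (bars, pooled libraries, so without error bars) in each gene and each stretch between genes, from low to high position, with the length of each place. Null bars stand at 0 up to Hoxa4 and at 1 in 5 of the places above it, and the highest wild-type bars, 5 each, are the long lower part of Hoxa3 and the 5 kb above Hoxa7.

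In wild-type cells, the 26 summits were a median of 1040 bp apart and scored from 4.01 to 6.44, with a median of 4.51 that equalled the median of the whole list. The highest lay between Hoxa6 and Hoxa7 (52212061, score 6.44, rank 22 of 732), followed by the one below Hoxa2 (52157658, 6.17), one between Hoxa2 and Hoxa3 in the noncoding RNA gene Hoxaas2 (52166832, 6.07) and the one at the Hoxa5 start (5.78). Hoxa2 itself held 2 low ones, at 52162678 and 52163321, both with a score of 4.08. The widest interval without a wild-type summit, 12.2 kb, ran from 52192301 above Hoxa4 to 52204515 at the Hoxa5 start. The Smchd1 and non-silencing Ctcf summits near 52197466 stood inside it, and so did the 2 null H3K27me3 summits that had no wild-type one within 1 kb, which were 3065 and 1908 bp from the nearest. The other null summits had wild-type ones at 277 bp in Hoxa6, 781 bp in Hoxa7 and 67 bp above Hoxa7. In the other direction, 21 of the 26 wild-type summits (80.8%) had no null one within 1 kb, against 92.8% of the whole wild-type list.

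The null H3K27me3 list was short everywhere, so the shares of the lists are given beside the counts. The span took 6.49% of the null list and 3.55% of the wild-type list. The exact 95% intervals overlapped, with a lower bound of 2.14% for the null share and an upper bound of 5.16% for the wild-type share. They account for counting error alone, and neighbouring summits are not independent. When the wild-type list was reduced to its 77 highest scores, the null list had 5 summits in the span and the wild-type list 4, or up to 8 with those tied at the limiting score of 5.60. No null summit here scored 5 or more, against 9 wild-type ones. The depth of the null libraries and the difference in genotype cannot be told apart in these lists.

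Smchd1 summits of the 5e-4 list stood among wild-type H3K27me3 summits. The latter were a median of 1040 bp apart in the span, so many positions there lie within 1 kb of one. The shares of whole lists set beside the counts do not allow for this local density. Of the 7 Smchd1 summits, 0 had a null and 6 a wild-type H3K27me3 summit within 1 kb (wild type: 138 to 887 bp), while 0.246% and 5.16% of the whole 5e-4 list did. The exception was 52197466, which lay 5165 bp from the nearest wild-type H3K27me3 summit. With the 5e-3 list, 2 of 15 had a null and 12 of 15 a wild-type H3K27me3 summit within 1 kb, against 0.271% and 4.07% of that list, and the closest wild-type pair was 26 bp apart. Seen from the mark, 17 of the 26 wild-type H3K27me3 summits had a Smchd1 summit of the 5e-3 list within 1 kb, against 6.69% of that whole list. Smchd1 at 5e-4, wild-type H3K27me3 and non-silencing Ctcf were listed together at 4 of the 6 members, Hoxa3, Hoxa5, Hoxa6 and Hoxa7, and at 0.142% of coding genes.

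DNA methylation was listed at the edges only. The MBD list named for null had a summit in Hotairm1, 1778 bp below Hoxa2 (52160639, score 19.7), and another 4405 bp above the start of Hoxa7 (52222978, 9.60), and the list named for wild type had none, which allows a share of its summits of up to 0.00192%. Thus 2 of 6 members (Hoxa2 and Hoxa7) were listed in the first and 0 in the second, against 72.8% and 76.1% of coding genes, and 0.270% of coding genes were, as those 2 were, in the list named for null alone. Because names and labels conflict, no genotype is assigned to this difference. Neither Smchd1 list had a summit within 1 kb of these 2, the nearest being 1163 bp away.

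Read from the low to the high end, the order was as follows. Below Hoxa2, H3K4me3 of both genotypes and Smchd1 stood together near the lower end of Hotairm1, with wild-type H3K27me3 on the lower side. Hoxa2, the lower part of Hoxa3 and Hoxa4 had wild-type H3K27me3 without Ctcf, H3K4me3, null H3K27me3 or a Smchd1 summit of the 5e-4 list. Above the Hoxa4 start came H3K4me3 of both genotypes with Smchd1 and wild-type H3K27me3, followed by a null H3K27me3 summit and the isolated Smchd1 and non-silencing Ctcf pair. Hoxa5 had a Smchd1 summit of the 5e-4 list inside and another just above its start, null H3K4me3 between them, non-silencing Ctcf at its start and H3K27me3 of both genotypes. Hoxa6 had H3K27me3 of both genotypes alone, and the stretch above it had Smchd1, wild-type Ctcf and the highest wild-type H3K27me3 summit within 337 bp of the Smchd1 one. Hoxa7 had H3K27me3 of both genotypes, and above it came a run of wild-type H3K27me3 with 1 null H3K27me3 summit in it (52220612), then H3K4me3, Smchd1 and Ctcf of every list within 214 bp.

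Set beside their neighbours, the 6 genes had the most summits of H3K27me3 and Smchd1 per length among 5 groups of Hox genes, which left out the posterior genes of other clusters. Per 10 kb, the null and wild-type lists had 0.756 and 3.93 summits from Hoxa2 to Hoxa7 and 0.419 and 3.35 from Hoxa9 to Hoxa13, whose window shares the uppermost part of the span. The 5 kb above Hoxa7, which count in both, held 1 null and 5 wild-type H3K27me3 summits and 1 Smchd1 summit of the 5e-4 list. The posterior window begins at 52218097, inside Hoxa7, so the wild-type H3K27me3 summits at 52218294 and 52218556 also count in both. Hoxa9 to Hoxa13 had 2 null and 16 wild-type H3K27me3 summits and 3 Smchd1 summits of the 5e-4 list in all. The related genes of other clusters had 0 and 2.38 (Hoxd3 to Hoxd4), 0.206 and 0.617 (Hoxc4 to Hoxc6) and 0 and 0.128 (Hoxb2 to Hoxb7). Smchd1 summits of the 5e-4 list numbered 1.06 per 10 kb from Hoxa2 to Hoxa7, 0.628 from Hoxa9 to Hoxa13, 0.432 at Hoxd3 to Hoxd4, 0.383 at Hoxb2 to Hoxb7 and 0 at Hoxc4 to Hoxc6. Of the 11 HoxB, HoxC and HoxD genes of the same paralogue groups, 0 had H3K4me3 in either genotype, 1 had null and 6 had wild-type H3K27me3, and 5 had Smchd1. Of the 4 posterior HoxA genes, 1 had null and 1 had wild-type H3K4me3, 2 had null and 4 had wild-type H3K27me3, and 4 had Smchd1. The gene with H3K4me3 was Hoxa9. Its H3K4me3, Smchd1 and null H3K27me3 summits were those above Hoxa7, already counted for the members. The paralogues with most H3K27me3 were Hoxd3 (0 null, 11 wild-type), Hoxd4 (0 and 6), Hoxc6 (1 and 3) and Hoxc5 (0 and 3). These differences between clusters were not tested.

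Genes elsewhere with the most similar set of summits were found by the distance between log2(1 + summits) of the 11 lists and the mean of the 6 members. Among 21879 other coding genes the nearest included the developmental regulators Prdm13 (distance 1.82), Msx1 (2.06), Hoxd12 (2.06) and Evx2 (2.09), while the median gene lay at 5.07 and the members themselves between 1.20 for Hoxa6 and 2.52 for Hoxa2. Prdm13 had 1 Smchd1 summit of the 5e-4 list, 1 null and 1 wild-type H3K4me3 summit, 1 null and 4 wild-type H3K27me3 summits and no Ctcf or MBD summit. Msx1 had 1 Smchd1, 1 and 1 H3K4me3, and 1 and 6 H3K27me3 summits.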

How the data were processed

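Per the labels, 28 libraries of 14 groups held ChIP-seq of Smchd1, Ctcf, H3K4me3 or H3K27me3, MBD-seq for methylated DNA, or whole cell extract. Per the submitters' processing notes, bases were called with CASAVA 1.4, peaks with MACS2 (version 2), and the build was mm10. Sources used here do not name the aligner. The authors deposited 11 lists of summits called on pooled libraries, scored by the −log10 of either a p-value or a q-value. Lowest scores lay just above 3.301 and 2.301, the −log10 of 5e-4 and 5e-3.

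Here, summits on assembled chromosomes from the first to the last member end, with 5 kb added, were counted, ranked and measured to their nearest neighbours (within 1 kb counted as beside) with Python 3.11.15, numpy 2.4.6, pandas 2.3.3 and scipy 1.17.1. Gene ends came from RefSeq on GRCm38. Counting, nearest distances and merging equalled a brute-force search in 300 of 300 simulated cases each. No test was run, since no list holds replicate values. Exact (Clopper-Pearson) 95% intervals cover counting error only. Alternatives were other flanks and distances, a score of at least 5, merged neighbours and equal list lengths.

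Members and gene lists were chosen with earlier results of these data known. All 6 members are named. Other genes are named as annotated in the span, as the 5 most similar, or as at most 4 per list with the most H3K27me3 summits, and some of these are not reported here.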

Additional observations from a re-analysis of the deposited data

How the results depend on the processing

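Of 94 values recomputed under alternatives, 71 stayed within 1.5 times the reported count. With a flank of 2 kb, which leaves out the outer summits, the span held 2 null and 1 wild-type H3K4me3 summits, 0 null and 1 untransduced Ctcf summits and 1 of the MBD list named for null. With summits of score 5 or more, it held 0 null and 9 wild-type H3K27me3 summits and 5 Smchd1 summits of the 5e-3 list, and 0 members were listed for null H3K27me3. Null H3K27me3 summits without a wild-type counterpart, 2 within 1 kb, numbered 4 within 250 bp, 0 within 5 kb, 0 at a score of 5 or more and 5 when both lists were reduced to the same number of highest scores. Wild-type ones without a null counterpart, 21 within 1 kb, numbered 11 within 5 kb, 9 at a score of 5 or more and 4 with equal numbers. The counts with equal numbers left out 4 wild-type summits of the span tied at the limiting score of 5.60. At least 1 of these (52220679) lay beside a null summit, 67 bp from it, so both counts depend on how ties are cut. Members with a summit within 2 kb of either end numbered 3 null and 1 wild type for H3K4me3, 3 null for H3K27me3, 0 null and 1 untransduced for Ctcf and 1 for the MBD list named for null. For Smchd1 they numbered 4 at 5e-4 and 5 at 5e-3, against 6 with 5 kb on either side of the gene. The Ctcf core consensus, added after the data were seen, matched 1 member promoter, where the shorter core matched 0. Apart from the changes that follow from a list's construction (fewer summits, narrower windows), the cause was not tested. A flank of 10 kb and merging of neighbours within 500 bp moved no count by over 1.5 times. No paired analysis was possible because each list pools its libraries and no values per replicate were used. Depth per list is unknown, so a missing summit says only that none passed the threshold.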

Other observations

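Most genes that control Hox expression or work with Hox proteins lacked the H3K27me3 and Smchd1 summits listed at the members, as did most coding genes. Of all coding genes, 0.270% had null and 1.15% had wild-type H3K27me3, and 0.973% had Smchd1 at 5e-4. H3K4me3 was listed at 64.2% in null and 64.5% in wild-type cells. Counts of 0 for H3K27me3 or Smchd1 in short gene lists are therefore near the share of all genes. Of 9 Hox cofactor genes (Pbx, Meis and Pknox families), 9 had H3K4me3 in null and 9 in wild-type cells within the gene or 5 kb, and 0 had H3K27me3 in either genotype or Smchd1 at 5e-4. The same held for 12 of 12 Polycomb genes and 7 of 7 genes of the Mll complex, which deposits H3K4me3. Of 12 genes of retinoid signalling, an inducer of anterior Hox genes, 8 had H3K4me3 in null and 10 in wild-type cells, 0 had null and 1 had wild-type H3K27me3 (Aldh1a2, 3 summits), and 0 had Smchd1. Cdx2, an inducer of central Hox genes, had 0 null and 2 wild-type H3K27me3 summits. The differences between these lists and the 6 members were not tested.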
